A study of Mus musculus with 6 samples.

Results

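Phosphorylation of the alpha subunit of the translation initiation factor eIF2 is set by a small group of kinases, by the phosphatase subunits that reverse it and by proteins that act on the kinase GCN2. The 8 genes described here are the kinase genes EIF2AK1, EIF2AK2, EIF2AK3 and EIF2AK4, the phosphatase subunit genes PPP1R15A and PPP1R15B, and the GCN2 regulators GCN1 and IMPACT. They were taken by gene name from a table of 58735 genes, in which each of the 8 names occurs once, and all 8 had enough counts to be tested. The table holds 3 libraries from the parental line, 22Rv1, which is derived from a human prostate cancer and was kept in vehicle. Its other 3 libraries come from 22Rv1 BL-B01D1_R, a resistant subline that grew out of these cells as the concentration of BL-B01D1 was raised. The treatment label is vehicle for the parental libraries and BL-B01D1 for the resistant ones, so drug exposure and selection cannot be told apart. BL-B01D1 is an antibody-drug conjugate that binds EGFR and HER3 and carries a camptothecin-derived topoisomerase I inhibitor. The organism given in the labels is mouse, but the gene identifiers are human and so is the line. The resistant libraries all came from 1 selected subline, so the spread between libraries does not cover a repeated selection, and p-values measure only the spread between these libraries, which may be technical.

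eIF2 brings the initiator methionyl-tRNA to the ribosome. When its alpha subunit is phosphorylated, eIF2 holds on to its exchange factor eIF2B, most translation slows, and a few mRNAs such as that of ATF4 are translated more, a program called the integrated stress response. Each kinase answers to a different signal. EIF2AK1 encodes HRI, which responds to heme shortage and mitochondrial stress. EIF2AK2 encodes PKR, which binds double-stranded RNA and is itself induced by interferon. EIF2AK3 encodes PERK, a sensor in the membrane of the endoplasmic reticulum, and EIF2AK4 encodes GCN2, which responds to uncharged tRNA and stalled ribosomes. PPP1R15A encodes GADD34, a stress-induced subunit that directs protein phosphatase 1 to eIF2, and PPP1R15B encodes CReP, its constitutive counterpart. GCN1 binds ribosomes and is needed to activate GCN2, and IMPACT competes with GCN2 for GCN1. These proteins are controlled largely by phosphorylation and by translation, which mRNA levels do not measure.

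Counts on genes totaled between 13821639 and 17251491 per library, and 3 counts corresponded to 0.174 to 0.216 CPM (counts scaled to 1e6 per library after TMM adjustment of library size). Pairs of libraries of the same group differed by more than sampling noise (chi-square per degree of freedom 1.755 to 2.384). These values cannot show whether the libraries came from separate cultures. All 6 libraries were counted as separate samples. Mitochondrial transcripts took 4.19% to 4.21% of the counts in parental and 5.11% to 5.35% in resistant libraries, and the part of this difference in the results below was not tested. All 9 luminal prostate markers on a fixed list were tested, with summed levels of 3380 to 3480 CPM in parental and 3578 to 3664 CPM in resistant libraries. For 8 markers of blood, endothelial and stromal cells the sums were 15.1 to 17.2 and 13.0 to 13.3 CPM, of which COL1A1 (log2 fold change −0.28, edgeR FDR 0.0348) made up nearly all. CD3E and CDH5 were at 0 in every library, and PTPRC and PECAM1 stayed under 0.1 CPM on average.

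Transcripts of 3 of the 4 kinases and of both phosphatase subunits were lower in resistant cells. With edgeR's quasi-likelihood test and Benjamini-Hochberg adjustment (FDR) over all 17142 genes tested, 5 of the 8 genes fell at an FDR of less than 0.05, none rose, and EIF2AK4, GCN1 and IMPACT did not pass. Of all genes tested, 35.5% passed this threshold, 18.4% as lower and 17.1% as higher. All 8 genes had a mean of 20 CPM or more over all libraries. Among the 8503 genes at that level, the share called lower was 23.5%. The changes were small, and in bulk RNA less transcript in every cell cannot be told apart from loss in some cells. The 5 decreases ran from 12.0% to 25.0%, and 0 of the 8 genes passed the study's further requirement of an absolute log2 fold change greater than 1, which 5.37% of all genes tested met. The median log2 fold change of the 8 genes was −0.22, beside 0.0038 over all genes tested.

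**Figure D1:**
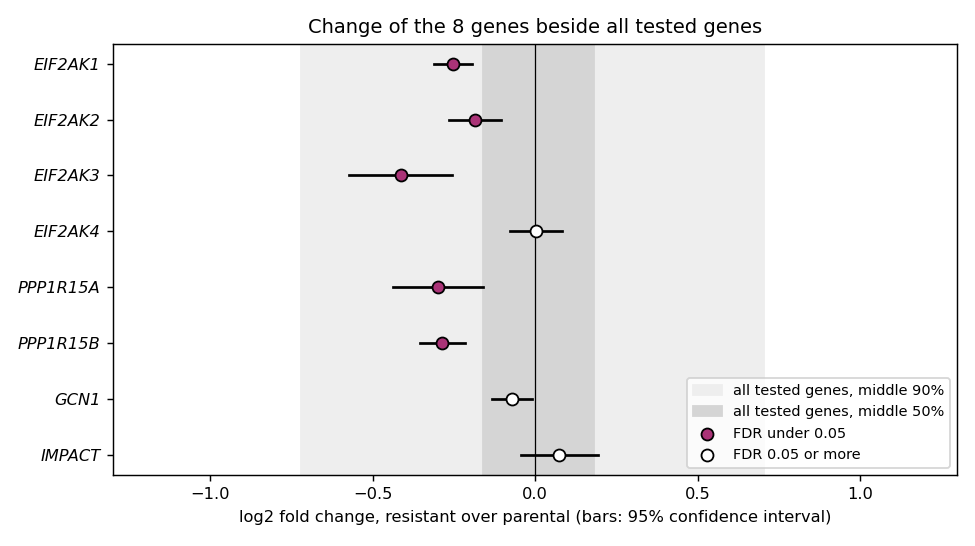
Log2 fold change of each of the 8 genes (resistant over parental, n = 3 per group) on the horizontal axis, with bars for the 95% confidence interval and shading for the middle 50% and 90% of all 17142 genes tested. The 5 filled points, at an FDR of less than 0.05, lie between −0.41 and −0.19, outside the middle 50% of genes but inside the middle 90%, and the 3 open points lie between −0.07 and 0.07.

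EIF2AK1, the HRI gene (ENSG00000086232, chromosome 7 of hg38, 6022244 to 6059230, reverse strand), measured 331, 324 and 335 CPM in parental libraries 1, 2 and 3 and 277, 278 and 275 CPM in resistant libraries 1, 2 and 3. Every resistant library was under every parental one, and the gap between the groups exceeded the spread within either. Its log2 fold change was −0.25 (SE 0.029, edgeR FDR 1.94e-09), a decrease of 16.1%. Non-overlapping groups with the resistant libraries below were seen in 22.8% of all genes tested and in 6 of these 8.

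EIF2AK3, the PERK gene (ENSG00000172071, chromosome 2, 88556741 to 88627576, reverse strand), showed the largest decrease of the 8. Its levels were 27.6, 25.9 and 26.2 CPM in parental and 19.1, 19.9 and 20.8 CPM in resistant libraries, again without overlap. The log2 fold change was −0.41 (SE 0.078, edgeR FDR 3.84e-05), with a 95% interval from −0.57 to −0.26. It is also the least abundant of the 8 in counts, with 293 to 475 per library, which widens its interval. Of all genes tested, 78.7% had a smaller absolute log2 fold change.

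EIF2AK2, the PKR gene (ENSG00000055332, chromosome 2, 37099210 to 37157065, reverse strand), changed least among the kinases that fell. It measured 117, 123 and 117 CPM in parental and 106, 105 and 103 CPM in resistant libraries. The groups did not overlap, and the log2 fold change was −0.19 (SE 0.039, edgeR FDR 2.08e-04), a decrease of 12.0%. By size alone such a change was common, since 52.7% of all genes tested had a smaller absolute log2 fold change. With its sign, it lay below the 25% quantile of all genes tested (−0.16).

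EIF2AK4, the GCN2 gene (ENSG00000128829, chromosome 15, 39934146 to 40035591, forward strand), stayed within its spread. Parental libraries held 111, 108 and 109 CPM and resistant libraries 108, 111 and 108 CPM, so that the groups overlapped. The log2 fold change was 0.0015 (SE 0.039, edgeR FDR 0.982), and its 95% interval runs from −5.25% to 5.76%. The intervals of EIF2AK1, EIF2AK2 and EIF2AK3 all lie below that of EIF2AK4. The sign of this value carries no information, since it turned negative with library size alone in place of TMM (−0.015) and when parental library 2, parental library 3 or resistant library 2 was left out.

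**Figure D2:**
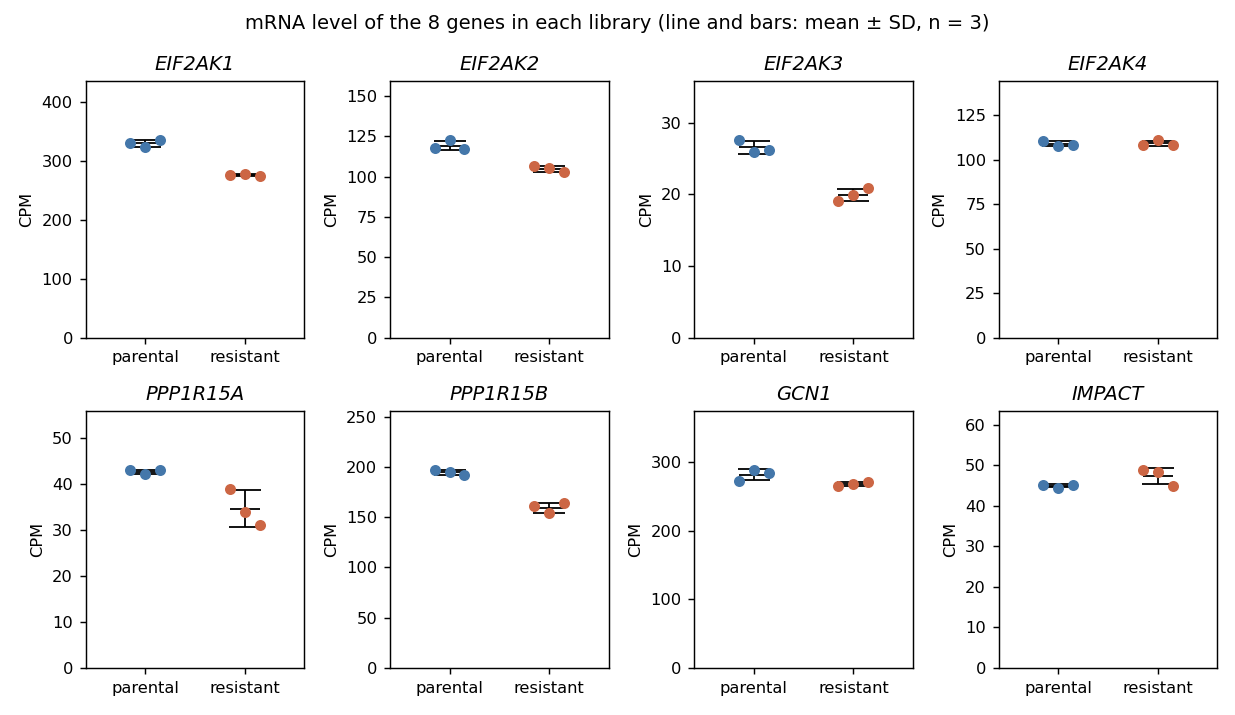
CPM of each gene on the vertical axis, which starts at 0 in every panel, for the 3 parental and 3 resistant libraries (points), with the mean and SD of each group. EIF2AK1, EIF2AK2, EIF2AK3, PPP1R15A, PPP1R15B and GCN1 have all resistant libraries under all parental ones, and EIF2AK4 and IMPACT overlap.

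Both subunits that lead protein phosphatase 1 to eIF2 were lower in resistant cells, by nearly the same factor. PPP1R15B, the CReP gene (ENSG00000158615, chromosome 1, 204403387 to 204411791, reverse strand), measured 196, 195 and 192 CPM in parental and 161, 154 and 164 CPM in resistant libraries. Its log2 fold change was −0.29 (SE 0.034, edgeR FDR 5.31e-09), a decrease of 18.0%, and the groups did not overlap.

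PPP1R15A, the GADD34 gene (ENSG00000087074, chromosome 19, 48872392 to 48876057, forward strand), fell by 18.7%, with a log2 fold change of −0.30 (SE 0.069, edgeR FDR 5.56e-04). The parental libraries were tight at 42.9, 42.1 and 42.9 CPM, whereas the resistant libraries spread over 38.9, 33.9 and 30.9 CPM. The coefficient of variation was 1.04% in parental and 11.6% in resistant libraries, where counting error alone would give about 3.83% and 4.27%. Resistant library 1 lay closest to the parental level, and without it the log2 fold change was −0.39. Without resistant library 3, the lowest, it was −0.22 (edgeR FDR 0.016). This range was the widest of the 8 genes, although the direction and the call held in each case.

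The ratio of PPP1R15A to PPP1R15B, computed from FPKM (CPM per kilobase of the listed gene length), was 0.370 ± 0.0063 (SD, n = 3) in parental and 0.367 ± 0.045 (SD, n = 3) in resistant cells. The resistant ratios, 0.409, 0.373 and 0.319, ran from above to below the parental range of 0.365 to 0.377. The balance between the stress-induced and the constitutive subunit thus showed no shift in the mean beyond the spread, and this is a description without a test.

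The catalytic subunits of protein phosphatase 1, which serve many regulatory subunits besides these, moved less. PPP1CC fell by 9.41% (log2 fold change −0.14, SE 0.032, edgeR FDR 4.15e-04) and PPP1CA by 6.81% (−0.10, SE 0.032, edgeR FDR 0.0108). PPP1CB, at a log2 fold change of −0.03 (edgeR FDR 0.503), had overlapping groups. The call of PPP1CA was lost without parental library 3 (FDR 0.0803) and without resistant library 1 (FDR 0.0704).

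GCN1, the ribosome-bound activator of GCN2 (ENSG00000089154, chromosome 12, 120127203 to 120194710, reverse strand), sat at the edge of the threshold. It measured 273, 288 and 285 CPM in parental and 265, 269 and 271 CPM in resistant libraries, which did not overlap. The nearest libraries of the groups, parental 1 and resistant 3, differed by less than the range within either group. The log2 fold change was −0.07 (SE 0.031, edgeR FDR 0.0641), with a 95% interval from −8.82% to −0.683% before adjustment for multiple testing. GCN1 passed without parental library 1 (log2 fold change −0.10, FDR 0.0146) and with library size alone in place of TMM (−0.09, FDR 0.0217).

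IMPACT, which restrains GCN2 by binding GCN1 (ENSG00000154059, chromosome 18, 24426616 to 24453535, forward strand), was 45.2, 44.5 and 45.2 CPM in parental and 48.7, 48.4 and 45.0 CPM in resistant libraries. Resistant library 3 fell within the parental range and the other two lay above it. The log2 fold change was 0.07 (SE 0.058, edgeR FDR 0.349), and the 95% interval extends from −2.98% to 14.3%. The ratio of GCN1 to IMPACT in FPKM was 3.19 ± 0.11 (SD, n = 3) in parental and 2.89 ± 0.16 (SD, n = 3) in resistant cells, and the highest resistant ratio, 3.064, lay just under the lowest parental one, 3.070.

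Levels were compared between genes only as FPKM, with the listed gene length, which may exceed the transcript that these cells use. In parental cells the order from the highest was EIF2AK1 (59.5 ± 1.01 FPKM, SD, n = 3), PPP1R15B (37.2 ± 0.42), GCN1 (29.2 ± 0.84), PPP1R15A (13.8 ± 0.14), EIF2AK2 (11.1 ± 0.27), IMPACT (9.15 ± 0.089), EIF2AK4 (9.13 ± 0.12) and EIF2AK3 (4.89 ± 0.16). Of the neighbors in this order, IMPACT and EIF2AK4 overlapped between libraries and the others did not. HRI mRNA was thus the most abundant kinase transcript and PERK mRNA the least.

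The same order held in resistant cells, from EIF2AK1 at 49.9 ± 0.30 FPKM (SD, n = 3) to EIF2AK3 at 3.67 ± 0.16. There EIF2AK2 (9.75 ± 0.16 FPKM) overlapped IMPACT (9.63 ± 0.42), and IMPACT overlapped EIF2AK4 (9.14 ± 0.12). Against all genes tested, the mean FPKM of EIF2AK1 stood at percentile 95.6 and that of EIF2AK3 at percentile 49.7.

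**Figure D3:**
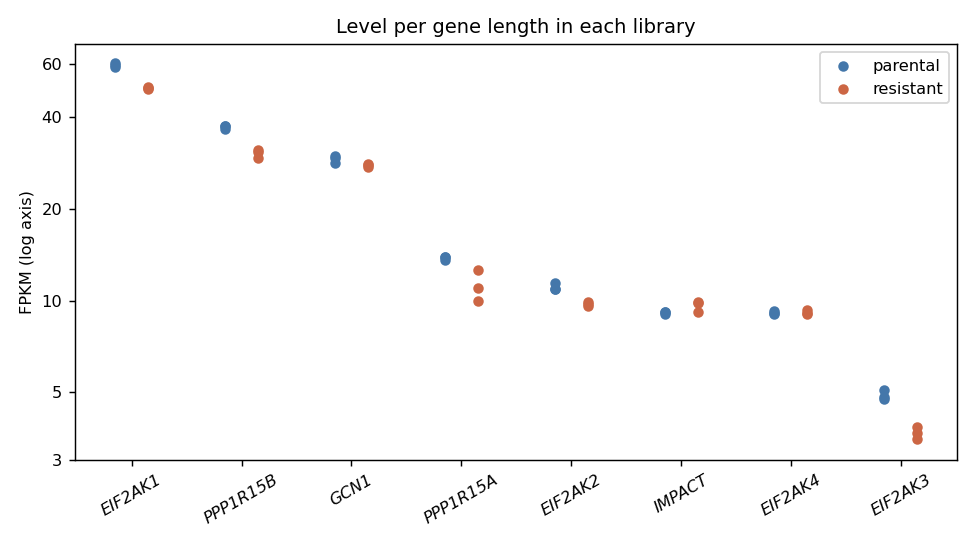
FPKM of each gene in each library on a log axis, with genes in the order of their parental mean, parental libraries in blue and resistant libraries in orange. EIF2AK1 lies highest, at 58.4 to 60.4 FPKM in parental and 49.6 to 50.2 FPKM in resistant libraries, and EIF2AK3 lies lowest, at 4.77 to 5.07 and 3.51 to 3.83 FPKM.

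The summed FPKM of the 4 kinases was 84.6 ± 0.85 (SD, n = 3) in parental and 72.4 ± 0.43 (SD, n = 3) in resistant cells. EIF2AK1 supplied 70.3% ± 0.51 of this sum in parental and 68.9% ± 0.063 in resistant cells. The share of EIF2AK4 went from 10.8% ± 0.13 to 12.6% ± 0.10, that of EIF2AK2 from 13.1% ± 0.46 to 13.5% ± 0.20, and that of EIF2AK3 from 5.78% ± 0.17 to 5.07% ± 0.24 (SD, n = 3 for each). GCN2 mRNA thus made up a larger part of a smaller kinase pool in resistant cells. Its own level stayed within its spread (log2 fold change 0.0015), so this larger share restates the decreases of EIF2AK1, EIF2AK2 and EIF2AK3. The share of EIF2AK2 overlapped between the groups. These shares are descriptive, and the sum adds transcripts, not kinase activity.

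Several of these genes share their position with others in the annotation, and the sources used here do not state whether counting used strand. AIMP2, a protein-coding gene on the opposite strand, overlaps 1591 bases of the span of EIF2AK1 and had 954 to 1146 counts per library (log2 fold change −0.05, edgeR FDR 0.474). ANKRD61 lies within EIF2AK1 on the opposite strand, with 46 to 56 counts. GPATCH11 overlaps EIF2AK2 by 35 bases (log2 fold change −0.02, edgeR FDR 0.906). The antisense genes AL606489.1, across the whole of PPP1R15B, and AC062029.1, over 38 bases of EIF2AK3, had at most 68 and 57 counts. None of these neighbors passed the test. PPP1R15A overlaps no other gene in the table.

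The genes whose log2 CPM followed each member most closely over the 6 libraries were taken from 11956 genes with a mean of at least 5 CPM. For EIF2AK3 they were CITED4, SEC23B and ATF4 (Pearson's r 0.999, 0.998 and 0.997), for EIF2AK1 NDE1, NETO1 and TLNRD1 (0.999 each), and for PPP1R15B LITAF, VASH2 and DDAH2 (0.999, 0.999 and 0.998). EIF2AK2 was followed by COQ8A, SLC35G1 and NABP2 (0.997, 0.996 and 0.995) and PPP1R15A by RLF, AIMP1 and GRK2 (0.998, 0.995 and 0.991). The nearest were LRRFIP1 for GCN1 (0.996), VEZF1 for IMPACT (0.987) and REV1 for EIF2AK4 (0.979). For a gene that differs between the groups, such an r mostly restates that difference, and 997 genes had an r over 0.95 with EIF2AK1, whereas 7 had one with EIF2AK4. No member was among the nearest genes of another.

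Most genes for the substrate and its exchange factor did not pass. Of 9 genes for eIF2, eIF2B and EIF5, 1 fell, none rose and 8 did not pass, with a median log2 fold change of 0.03. Most genes did not pass over the whole set tested either, where 35.5% passed, 18.4% as lower and 17.1% as higher. The gene that fell was EIF2S2, for the beta subunit of eIF2, by 14.1% (log2 fold change −0.22, SE 0.035, edgeR FDR 2.16e-06). EIF2S1, for the alpha subunit that the kinases phosphorylate, had 197 ± 5.08 CPM (SD, n = 3) in parental and 187 ± 2.66 CPM (SD, n = 3) in resistant cells (log2 fold change −0.07, edgeR FDR 0.0805). EIF2S1 passed without parental library 2 (FDR 0.0443) and with library size alone (FDR 0.0287).

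Of 4 factors that can bring initiator tRNA to the ribosome without eIF2 or act with those that do, EIF2D rose by 14.3% (log2 fold change 0.19, SE 0.047, edgeR FDR 0.00105) and DENR fell by 10.5% (−0.16, SE 0.040, edgeR FDR 0.00131). EIF2A (0.04, FDR 0.475) and MCTS1 (0.02, FDR 0.861) did not pass.

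Among 11 genes whose products act on the kinases, 4 rose, 2 fell and 5 did not pass, with a median log2 fold change of 0.0038, equal to that of all genes tested at this precision. The shares over all genes tested were 17.1% called higher and 18.4% called lower. The genes of the ribosomal P-stalk, a structure that can activate GCN2, rose together. Other ribosomal protein genes were not listed here, so whether this rise is particular to the P-stalk was not tested. RPLP2 rose by 19.5% (log2 fold change 0.26, SE 0.028, edgeR FDR 8.05e-10), RPLP0 by 15.6% (0.21, SE 0.021, edgeR FDR 5.11e-11) and RPLP1 by a log2 value of 0.19 (edgeR FDR 1.17e-07). HSPA5, the endoplasmic reticulum chaperone BiP that holds PERK inactive, rose by a log2 value of 0.08 (edgeR FDR 0.0108). RPLP1 and HSPA5 were named after their values were seen, and the call of HSPA5 was lost without parental library 2 (FDR 0.128), without resistant library 1 (FDR 0.0558) and with limma on log2(FPKM + 1) (FDR 0.069).

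The genes of this list that fell were MAP3K20, for the ribosome collision kinase ZAK, by 18.8% (log2 fold change −0.30, SE 0.073, edgeR FDR 9.83e-04), and ADAR, for an enzyme that edits double-stranded RNA and so limits PKR activation, by 5.40% (−0.08, SE 0.026, edgeR FDR 0.013). MAP3K20 lost its call with limma on log2(FPKM + 1) (log2 fold change −0.21, FDR 0.0577). ADAR was no longer called without parental library 2 (FDR 0.0882) or without resistant library 2 (FDR 0.0635). DELE1 and OMA1, which relay mitochondrial stress to HRI, had log2 fold changes of −0.03 and 0.15 (edgeR FDR 0.615 and 0.183). PRKRA and TARBP2, which bind PKR, and DNAJC3, a cochaperone that inhibits PKR and PERK, also did not pass.

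**Figure D4:**
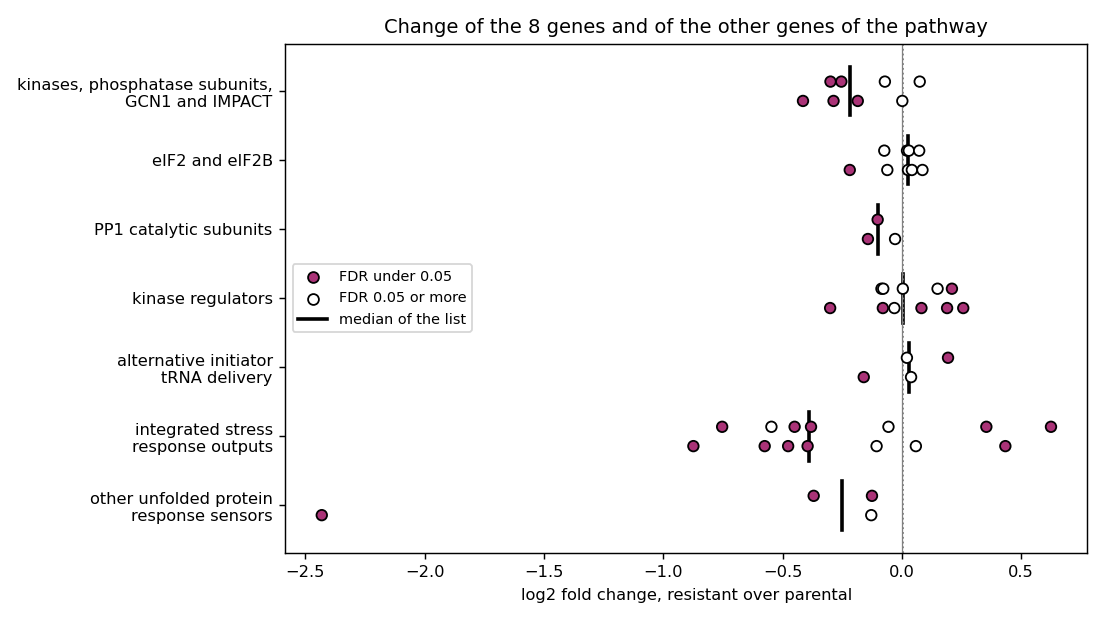
Log2 fold change (resistant over parental) of the 8 genes and of 6 lists of other genes of the pathway, with filled points for an FDR of less than 0.05 and a bar for the median of each list. The median is −0.22 for the 8 genes, 0.03 for eIF2 and eIF2B and −0.39 for the integrated stress response outputs, and the point farthest to the left is ERN1 at −2.43.

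Downstream of eIF2, 14 genes known as outputs of the integrated stress response were all tested. In resistant cells 7 fell, 3 rose and 4 did not pass, and the median log2 fold change was −0.39. Of all genes tested, 18.4% were called lower and 17.1% higher. CHAC1 just missed the threshold (log2 fold change −0.55, edgeR FDR 0.0524), and its groups did not overlap. The number that fell was 8 with limma-voom, with library size alone and with at least 10 counts in every sample. With DESeq2 it was 6. The list shares genes with results already known for these libraries, so its direction is not independent evidence. SLC7A11, the cystine transporter, fell from 111 ± 2.44 to 60.4 ± 3.01 CPM (SD, n = 3 per group, log2 fold change −0.87, edgeR FDR 1.49e-19), and NUPR1, a stress-induced chromatin protein, fell from 133 ± 4.64 to 78.7 ± 0.56 CPM (−0.75, edgeR FDR 5.85e-19).

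ATF4 itself fell by 24.0% (log2 fold change −0.40, SE 0.029, edgeR FDR 9.17e-15), a change close in size to that of EIF2AK3. The other genes that fell were CEBPG, ATF3, ASNS and CEBPB, with log2 fold changes from −0.58 to −0.38, of which ASNS was not called without parental library 1 (FDR 0.158) or without resistant library 2 (FDR 0.113). ASNS also lost its call with DESeq2 (FDR 0.0519) and with limma on log2(FPKM + 1) (log2 fold change −0.28, FDR 0.113). The 3 that rose were ATF5, a transcription factor controlled in translation like ATF4 (log2 fold change 0.62, SE 0.079, edgeR FDR 1.69e-08), DDIT4, an inhibitor of mTORC1 (0.43, SE 0.090, edgeR FDR 1.49e-04), and TRIB3, a pseudokinase that restrains ATF4 (0.35, edgeR FDR 4.82e-11), the last named after its value was seen. DDIT3, for CHOP, which activates PPP1R15A transcription, was at 11.6 CPM in parental and 11.1 CPM in resistant cells (log2 fold change −0.06, edgeR FDR 0.742, 95% interval from −17.7% to 12.4%). The outputs thus did not move in 1 direction.

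Beside PERK, the unfolded protein response has other sensors in the endoplasmic reticulum. ERN1, for the sensor IRE1, fell from 165 ± 6.32 to 30.6 ± 1.20 CPM (SD, n = 3 per group, log2 fold change −2.43, SE 0.048, edgeR FDR 6.78e-35), a far larger decrease than that of EIF2AK3. XBP1, whose mRNA IRE1 splices, fell by 22.6% (−0.37, SE 0.038, edgeR FDR 8.88e-11). The log2 fold changes of ATF6 (edgeR FDR 0.0322) and ATF6B (edgeR FDR 0.0706) were both −0.13. The call of ATF6 was lost in 4 of the 6 fits that left out a library each, namely parental 1 (FDR 0.099), parental 2 (FDR 0.0921), resistant 1 (FDR 0.0817) and resistant 2 (FDR 0.169), and ATF6B was called in 2 of them, without parental 1 (FDR 0.0492) and without parental 3 (FDR 0.0441). ATF6 was also not called with DESeq2 (FDR 0.0874), limma on log2(FPKM + 1) (FDR 0.0889) or no filter (FDR 0.0634), and ATF6B was called with library size alone (FDR 0.041). ERN2, for the epithelial form of IRE1, was under 0.2 CPM on average in both groups and was not tested.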

How the data were processed

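RNA was measured in 6 libraries, grouped by the treatment label. Per the labels and the study's methods, the authors purified poly-A RNA, mapped reads to hg38 with HISAT2 (2.0.5), counted them per gene with featureCounts (1.5.0-p3) and deposited raw counts with gene positions and, as another quantity, gene lengths. The annotation release and strand setting are not given in the sources used here, and 0 columns of per-sample values were left unused. Counts of the parental columns were matched to control samples by number.

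The deposited counts were filtered with filterByExpr, scaled with TMM and compared with edgeR 4.0.16 in R 4.3.3 over 17142 genes. Standard errors are the absolute log2 fold change divided by the square root of F, and 95% intervals use the test's degrees of freedom without adjustment for multiple testing. The biological coefficient of variation was 3.51%. FPKM was computed from TMM-scaled CPM and gene length. Floors of 3 counts cover counting error only.

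The members and lists were chosen with earlier results of these data known. Named by rule are the 8 members, EIF2S1, ATF4 and, per list, the 2 called genes at either end of the log2 fold changes, lists of 5 or fewer genes in full, overlapping genes and the 3 genes of highest correlation per member. Further listed genes were named outside this rule, among them CHAC1, DDIT3, CEBPG, ATF3, ASNS, CEBPB, DELE1, OMA1, PRKRA, TARBP2 and DNAJC3. Alternatives were limma-voom and limma on log2(FPKM + 1) (limma 3.58.1, the authors' package), DESeq2 1.42.0, other scalings and filters, protein-coding genes only, the replicate block and each library left out. Scripts were tested on simulated data. The reference at hand was of mouse, so human sequences are not shown.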

Additional observations from a re-analysis of the deposited data

How the results depend on the processing

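Of the 128 log2 fold changes computed for the 8 genes under the alternatives, 122 kept their direction and their side of an FDR of 0.05, and the exceptions were values of EIF2AK4 and GCN1. The number of members called lower, 5, stayed at 5 except with library size alone and without parental replicate 1, where GCN1 made it 6, and none was called higher under any alternative run. EIF2AK4, at 0.0015, was −0.015 with library size alone and between −0.0085 and 0.012 over the fits without 1 library, namely −0.0071 without parental replicate 2, −9.8e-04 without parental replicate 3 and −0.0085 without resistant replicate 2. GCN1, at −0.07, was −0.088 with library size alone (FDR 0.0217) and between −0.096 and −0.056 over the fits without 1 library. MCTS1, at 0.02, lay between −0.027 and 0.0555 over these fits, with −0.0090 without parental replicate 3 and −0.027 without resistant replicate 2. The cause of these changes was not tested. The share of genes at an FDR of less than 0.05, 35.5%, was 16.9% with no filter, where many genes with few counts enter, and 45.2% among genes at a mean of 20 CPM or more, a set chosen after seeing the data. Ratios and shares of the kinase sum depend on the length used. From CPM, EIF2AK1 made up 56.4% in parental and 54.2% in resistant cells, and EIF2AK4 18.7% and 21.4%.

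Same-numbered parental and resistant libraries did not deviate together (correlations of −0.0081, −0.020 and −0.016, with 0 of 3 closest to their own number). No sign of pairing by number was thus seen, but such values cannot show that the cultures were unpaired. With the replicate block, 5 members were still called lower and 34.3% of genes passed. Depth limits CHAC1 most among the pathway genes tested (cell type markers aside), at 3.43 CPM in parental and 2.35 CPM in resistant cells, whereas the members had at least 293 counts in every library.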
